A study of Homo sapiens with 30 samples.

Results

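The genes described here build, cut or hold the extracellular matrix: collagens, laminins, matricellular proteins, matrix proteases with their inhibitors, integrins and other receptors, and contractile markers of matrix-producing cells. Members were taken from a list of 41 genes, by current or older symbol, wherever a probe set of the array was annotated with that gene alone, and 35 of the 12690 genes so annotated were found. COL5A2, LAMA3, LAMB3, LAMC1, MMP2 and ITGB1 are not analysed here. After a filter that kept the brighter 60% of genes, 7614 genes were tested, among them 28 members. The 7 members below that filter, COL3A1, COL12A1, LAMB1, MMP1, MMP7, ITGA2 and ITGAV, are given by their intensities.

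The study asked how VHL and p53 genotype alter expression in hypoxia, with 30 arrays of 3 human carcinoma lines grown as monolayers. RCC4 renal carcinoma cells were either VHL-null or had wild-type VHL reintroduced (VHL-restored here), and each genotype was measured at 0, 1, 2, 4, 6 and 18 h of hypoxia and after 18 h of hypoxia followed by 1 h or 4 h of reoxygenation. H1299, a non-small cell lung cancer line, was p53-null or had p53 reintroduced and was measured at 0 and 24 h, while HCT116 colon carcinoma cells, p53-null or p53 wild-type, were measured at 0, 12 and 24 h. Hypoxia was oxygen below 0.01%, and only the RCC4 arrays at 0 h and 18 h came in 2 replicates, with 1 array in every other group. The labels name no separate clones, so other differences between the cells of 2 genotypes cannot be told apart from the genotype, and the p-values reflect array-to-array spread alone. Fewer cells of a kind and less RNA per cell cannot be told apart in such bulk samples either.

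Matrix proteins are secreted into a scaffold that cells grip through integrins. Laminins and type IV collagen form the sheet-like basement membrane under epithelia, including the kidney tubule, while fibrillar collagens fill the stroma. Matricellular proteins such as CCN1, CCN2 and thrombospondin regulate adhesion and growth factors rather than carry load, matrix metalloproteinases cut the scaffold, and TIMP proteins block those enzymes. VHL is the part of a ubiquitin ligase that removes HIF in oxygen, and its loss is the founding lesion of clear cell renal carcinoma.

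A group of 5 control entries separated the arrays: 18 arrays left them blank (called set 1) and 12 listed them (set 2). Every H1299 and HCT116 array belonged to set 1, together with RCC4 at 2 h, at 6 h and the first replicates at 0 and 18 h. The second RCC4 replicates, the 1 h and 4 h arrays and reoxygenation made up set 2. Set 2 was the brighter one, with medians of listed intensity from 201 to 222 against 145 to 174, and the number of arrays limits the precision. PAX8, a renal lineage factor, read 272 to 564 on RCC4 arrays and 105 to 155 on the others. Of 8 colon markers listed 7 were found, and they summed to 393 to 500 in HCT116, 394 to 446 in H1299 and 418 to 722 in RCC4. KRT20 and GPA33 were null on all 6 HCT116 arrays, CDX1 read 27 to 44 there and at most 3 in RCC4, and CDX2 and LGALS4 overlapped among the lines. The 5 of 6 lung markers found summed to 784 to 821 in H1299, 799 to 885 in HCT116 and 832 to 1085 in RCC4. Of 8 fibroblast markers 7 were found, summing to between 1052 and 1355 in RCC4, 1143 and 1470 in H1299, and 1174 and 1734 in HCT116. FAP and POSTN were null on every H1299 and HCT116 array and on 15 and 19 of the 20 RCC4 arrays, while PDGFRA, FBLN1 and DCN were listed on every array.

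VHL-null and VHL-restored RCC4 cells were compared over all 20 RCC4 arrays, in a fit with genotype and state terms. States of 1 line served as repeats, so its p-values measure repeatability over states, not over clones. The arrays also form 10 pairs of the same state and replicate, which this fit did not use. In VHL-null cells the matricellular gene CCN2 was 4.42-fold lower, the elastin microfibril glycoprotein EMILIN2 2.21-fold lower, the protease inhibitor TIMP2 1.99-fold lower and thrombospondin THBS1 1.72-fold lower. The basement membrane genes LAMA5 and COL4A2 were lower by smaller factors, whereas the hyaluronan receptor CD44, the integrin subunit ITGB5 and the collagen genes COL6A3 and COL1A1 were higher. Folds are on the log2(intensity + 16) scale after centring each array on its median, so changes of dim genes are understated. At a limma adjusted p under 0.05, 10 of 28 members passed, against 15.1% of all genes tested. Of these, 4 were higher, where 7.14% of all genes were, and 6 were lower, where 7.97% were. Without centring 5 members passed (1 higher, 4 lower). The median member difference was -0.04 on the log2 scale, close to the -0.05 of all genes tested. With the pair of arrays as a block, again 10 members passed, while the share of all genes rose to 33.1%.

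**Figure D1:**
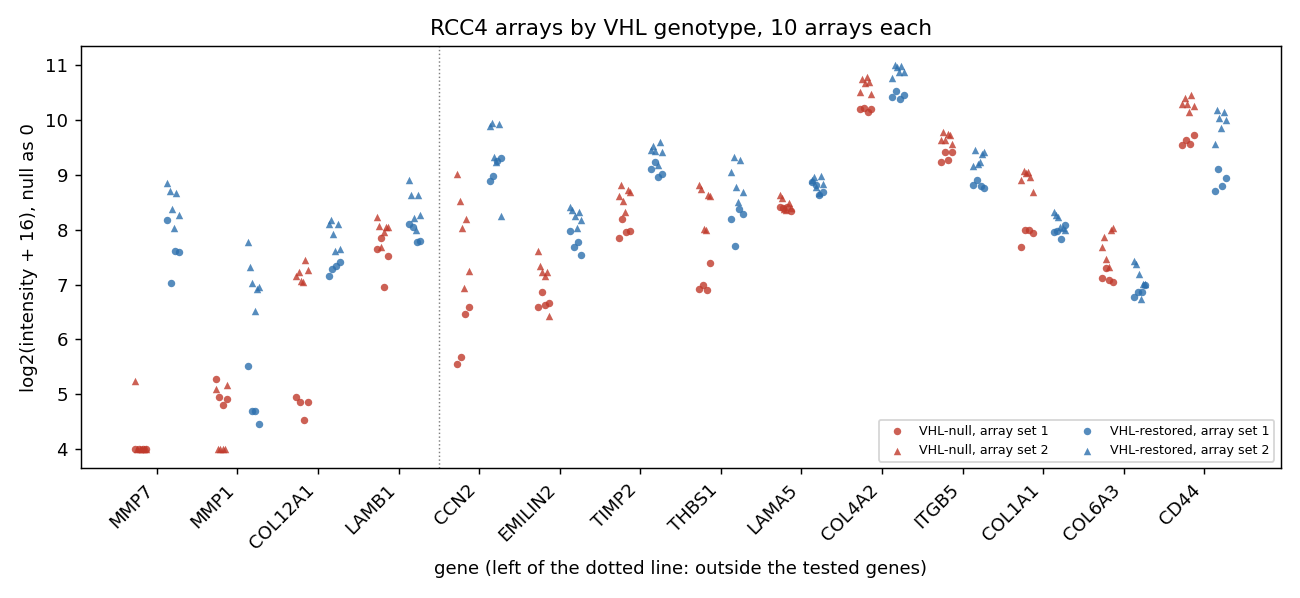
Log2(intensity + 16) of 14 matrix genes on each RCC4 array, with VHL-null arrays in red, VHL-restored arrays in blue, circles for array set 1 and triangles for set 2; the 4 genes left of the dotted line were below the filter. MMP7 and TIMP2 are the genes in which all 10 VHL-null points lie under all 10 VHL-restored points.

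CCN2, the connective tissue growth factor that promotes matrix production, read 31 at its lowest, 122 at the median and 502 at its highest on the 10 VHL-null arrays. On the 10 VHL-restored arrays it read 289, 610 and 969. The ranges overlapped, yet the VHL-null array was the lower one in all 10 pairs, with a log2 difference of -2.14 (SE 0.314, limma adjusted p = 0.000186). The 250 bases before the CCN2 start are shown because the gene had the largest difference among the tested members. They lie at chr6:131951373-131951622 on the minus strand (RefSeq, GRCh38.p14), with capitals marking GGAATG, the letters recognised by TEAD factors.
CCN2: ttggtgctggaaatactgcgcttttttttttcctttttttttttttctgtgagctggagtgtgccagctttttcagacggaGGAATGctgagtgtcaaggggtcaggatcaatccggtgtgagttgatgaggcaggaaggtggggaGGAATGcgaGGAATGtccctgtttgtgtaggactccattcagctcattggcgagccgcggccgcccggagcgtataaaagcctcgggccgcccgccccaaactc
GGAATG stood 169, 104 and 95 bases before the start. On either strand it occurs in the same window of 11.9% of 35116 promoters and of 7 of the 31 promoter entries that matched 25 of the 35 members. A match describes letters and shows no binding.

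THBS1, an adhesive glycoprotein that restrains angiogenesis, read 104, 241 and 437 (lowest, median and highest) on VHL-null arrays. Its readings were 193, 372.5 and 631 on VHL-restored arrays. It was lower in all 10 pairs (log2 difference -0.78, SE 0.178, limma adjusted p = 0.00596), and without centring the adjusted p was 0.279. A pair of dimmer THBS1 probe sets differed by -0.21 and 0.16, so the probe sets of this gene disagreed. EMILIN2 read 70, 113.5 and 179 on VHL-null arrays. The VHL-restored arrays read 170, 260 and 326 for it. The groups overlapped only between 170, on a VHL-restored array of set 1, and 179, on a VHL-null array of the brighter set 2. The difference was -1.15 (SE 0.0881, limma adjusted p = 2.3e-07), with the VHL-null array lower in all 10 pairs. CCN1, the other CCN family member measured, did not pass, at 486, 1154 and 1686 in VHL-null cells and 396, 959 and 1576 in VHL-restored cells. TGFBI, a secreted integrin ligand and the brightest of its group, read 1937 to 2717 and 1493 to 2361, and its difference of 0.19 did not pass (limma adjusted p = 0.247). SPARC, a collagen-binding glycoprotein, and TNC, tenascin C, did not pass either, at 61 to 138 against 76 to 127 and at 183 to 247 against 171 to 242.

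TIMP2, which inhibits metalloproteinases and takes part in activating pro-MMP2, was the 1 of 28 tested members whose genotypes did not overlap, beside 0.499% of all genes tested. VHL-null arrays read 215, 327.5 and 436, and VHL-restored arrays read 482, 627 and 766. Every VHL-null value lay below every VHL-restored one (log2 difference -0.99, SE 0.0494, limma adjusted p = 2.3e-09). The inhibitor genes TIMP1 (104 to 159 against 93 to 145) and TIMP3 (204 to 276 against 191 to 264) overlapped almost fully and did not pass. MMP14, the membrane-bound collagenase, read 259 to 382 and 263 to 337 and did not pass.

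MMP7, matrilysin, is a small secreted protease of epithelia. It was the other member without overlap in uncentred intensity, which makes 2 of the 35 members found, beside 0.504% of all 12690 genes. It was null on 9 of the 10 VHL-null arrays and 22 on the other one, the second replicate at 0 h. The VHL-restored arrays read 115 at the lowest, 283.5 at the median and 446 at the highest. Being dim or null outside the VHL-restored cells (at most 22 elsewhere), it fell below the filter, and no fold is given against null entries. When all 12690 genes were fitted, its log2 difference was -4.08 (SE 0.159, limma adjusted p = 2.24e-09), a size that depends on the 16 added to each value, and 10.9% of genes passed in that fit. Its 250 bases before the start are shown for this contrast, from chr11:102530748-102530997 on the minus strand (RefSeq, GRCh38.p14), with capitals marking TGANTCA, the letters recognised by AP-1.
MMP7: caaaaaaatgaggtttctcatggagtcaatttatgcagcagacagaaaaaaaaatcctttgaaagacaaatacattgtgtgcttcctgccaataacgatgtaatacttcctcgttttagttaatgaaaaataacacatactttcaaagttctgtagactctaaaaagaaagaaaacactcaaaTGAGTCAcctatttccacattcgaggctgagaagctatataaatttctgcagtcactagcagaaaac
The match stood 67 bases before the start. TGANTCA occurs in 6.57% of promoters on either strand and in 2 of the 31 member entries, the other being EMILIN2.

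MMP1, interstitial collagenase, was brightest on part of the VHL-restored arrays and in H1299. The 4 H1299 arrays read 99 to 125, and the 6 HCT116 arrays were null or at most 12. In RCC4 set 2 it read 76 to 203 on VHL-restored arrays and was null or at most 20 on VHL-null arrays. In set 1 both genotypes read 6 to 30, so the genotypes separated in 1 array set and not in the other (limma adjusted p of a term for genotype by array set = 0.00244 in the fit of all genes). The fit of all genes gave -1.64 (SE 0.409, limma adjusted p = 0.0178) over both sets.

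Among the basement membrane genes, LAMA5, the laminin alpha chain common in kidney, read 310, 324 and 382 on VHL-null arrays. On VHL-restored arrays it read 381, 439 and 490. Overlap was a matter of 1 intensity unit, from 381 to 382, and the log2 difference was -0.44 (SE 0.0883, limma adjusted p = 0.00236). LAMB1, a laminin beta chain below the filter, read 109 to 286 and 204 to 462, was lower in all 10 pairs and differed by -0.50 in the fit of all genes (SE 0.0785, limma adjusted p = 0.000851).

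COL4A2 and COL4A1 encode the chains of the common type IV collagen trimer and are transcribed in opposite directions from neighbouring starts. COL4A2 read 1114, 1427 and 1754 on VHL-null arrays. On VHL-restored arrays it read 1315, 1802.5 and 2039. It was lower in all 10 pairs (log2 difference -0.33, SE 0.0639, limma adjusted p = 0.00186), though without centring the adjusted p was 0.121. COL4A1 read 673 to 871 and 680 to 904, with a difference of -0.09 that did not pass (limma adjusted p = 0.451). The starts of the 2 genes lie 127 bases apart in RefSeq, and the 126 bases between them are shown because the genes share this region. It is chr13:110307158-110307283, read on the plus strand (GRCh38.p14), towards COL4A2, with capitals marking CCAAT.
COL4A2: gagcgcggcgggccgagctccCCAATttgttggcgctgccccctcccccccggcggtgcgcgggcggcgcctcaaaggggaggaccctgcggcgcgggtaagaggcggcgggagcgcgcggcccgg
CCAAT occurs in the 250 bases before the start of 32.0% of promoters on either strand and of 8 of the 31 member entries. The COL4A1 and COL4A2 entries count the same marked CCAAT, which lies in both windows.

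Of the other collagens, COL6A3, the largest chain of the pericellular collagen VI, was higher in VHL-null cells. It read 117, 152.5 and 246 on VHL-null arrays. VHL-restored arrays read 91, 112 and 156. The ranges overlapped, while the VHL-null array was higher in all 10 pairs (log2 difference 0.40, SE 0.0742, limma adjusted p = 0.00126, and 0.0854 without centring). Its partner chains did not pass, COL6A1 at 313 to 447 against 280 to 422 and COL6A2 at 230 to 401 against 215 to 389.

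COL1A1, the main chain of fibrillar collagen I, read 190, 431.5 and 520 on VHL-null arrays. It read 212, 249 and 305 on VHL-restored arrays. It was higher in VHL-null cells in 8 of 10 pairs (log2 difference 0.39, SE 0.109, limma adjusted p = 0.0227). The call was lost without centring (adjusted p = 0.258) and when either array at 1 h, at 4 h or at either reoxygenation time was left out, with adjusted p between 0.0512 and 0.0663 in those 8 fits. A dimmer COL1A1 probe set differed by 0.10. COL1A2 and COL5A1, partner chains of fibrillar collagen, did not pass, at 171 to 302 against 140 to 249 and at 312 to 656 against 334 to 629.

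COL12A1, a collagen that decorates fibrils, was below the filter. On VHL-null arrays it read 7 to 15 in set 1 and 117 to 159 in set 2, and on VHL-restored arrays 127 to 155 and 180 to 274. It was lower in all 10 pairs, by -1.50 over both sets in the fit of all genes (SE 0.284, limma adjusted p = 0.00319). The difference was -2.49 in set 1 and -0.84 in set 2. In the fit of all genes the limma adjusted p of a term for genotype by array set was 0.00244. COL3A1 was null on 26 of 30 arrays and at most 11 elsewhere.

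CD44 read 732, 1168.5 and 1386 on VHL-null arrays. On VHL-restored arrays it read 402, 829.5 and 1146. It was higher in all 10 pairs (log2 difference 0.43, SE 0.0951, limma adjusted p = 0.00507, and 0.156 without centring), whereas 2 dimmer CD44 probe sets differed by -0.09 and 0.05. ITGB5, the beta subunit that pairs with the alpha V integrin chain to bind vitronectin, read 585, 762.5 and 869 on VHL-null arrays. VHL-restored arrays read 419, 566.5 and 689 for ITGB5. It was higher in 9 of 10 pairs (0.36, SE 0.0698, limma adjusted p = 0.00161), and a dimmer ITGB5 probe set differed by 0.12.

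The laminin receptor subunit ITGA3, the brightest integrin probe set, did not pass, at 600 to 857 against 504 to 1020 (-0.23, limma adjusted p = 0.143). ITGB4, which anchors hemidesmosomes and was the dimmest tested integrin, read 60 to 111 and 51 to 103, and ITGA5, of the fibronectin receptor, read 84 to 195 and 75 to 187. ITGA2 was null on all 20 RCC4 arrays, and ITGAV was null on 5 arrays of each genotype and at most 55. The contractile genes ACTA2 (221 to 748 against 183 to 371) and TAGLN (294 to 1005 against 419 to 728) did not pass.

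The size of the VHL difference depended on the array set for several members. A term for genotype by array set, added after the values were seen, passed in 8 of 28 members at a limma adjusted p under 0.05, against 6.67% of all genes. For CCN2 the difference was -3.03 over the 4 pairs of set 1 and -1.55 over the 6 pairs of set 2 (limma adjusted p of the set term = 0.00359). For THBS1 it was -1.08 and -0.59 (limma adjusted p = 0.0473), and for CD44 it was 0.74 and 0.23 (limma adjusted p = 0.0158). TIMP2, at -1.07 and -0.94, and EMILIN2, at -1.05 and -1.21, were not among the 8.

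TAGLN, an actin-binding protein of smooth muscle, went in opposite directions in the sets. On VHL-null arrays it read 294 to 369 in set 1, all below the VHL-restored range of 516 to 580. In set 2 it read 581 to 1005 on VHL-null arrays and 419 to 728 on VHL-restored ones, with the VHL-null array higher in all 6 pairs. Its differences were -0.66 and 0.45 (limma adjusted p of the set term = 0.000418), and over all 10 pairs they came to 0.00. COL1A1 differed by -0.05 in set 1 and 0.68 in set 2 (0.00362), ITGA3 by 0.11 and -0.46 (0.00774), COL6A2 by 0.32 and -0.30 (0.0285), and TGFBI by 0.43 and 0.03 (0.0399), each with limma's adjusted p of the set term. Both sets hold arrays at 0 h and 18 h, and TAGLN differed in opposite directions there too: at 0 h it read 294 without VHL and 516 with it in set 1 but 845 and 476 in set 2, and at 18 h 354 and 575 but 1005 and 610. The part of the set or the culture in this was not tested.

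**Figure D2:**
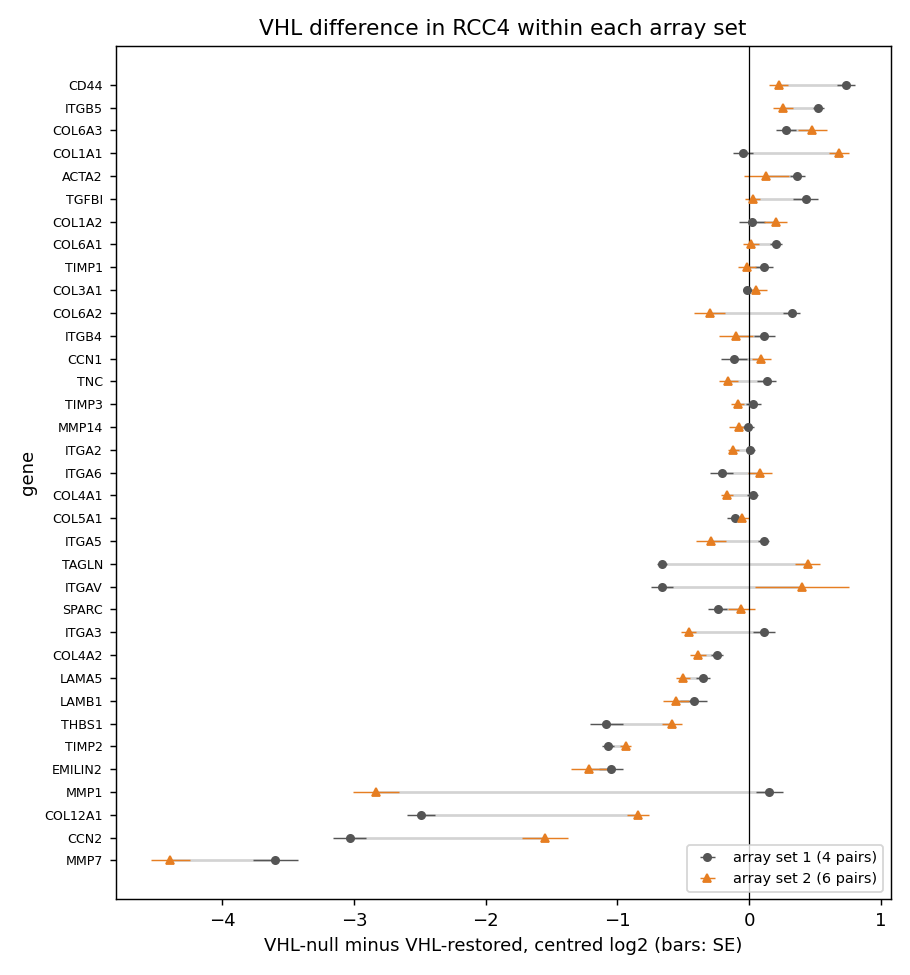
VHL-null minus VHL-restored difference (centred log2, bars are SE) of the 35 members within array set 1 (grey circles, 4 pairs) and set 2 (orange triangles, 6 pairs). MMP7, CCN2, EMILIN2 and TIMP2 lie below 0 in both sets, while TAGLN lies at -0.66 and 0.45.

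At 0 h alone, with 2 arrays per genotype, no member passed (0 of 28 in limma, against 0.118% of all genes). An unadjusted p under 0.05 was reached by 4 members and by 3.45% of all genes. With the replicate number as a block, 7 members passed, against 7.51% of all genes. CCN2 read 31 and 502 in VHL-null cells and 458 and 931 in VHL-restored cells, lower in each replicate (log2 difference -2.16, blocked limma adjusted p = 0.00117). TIMP2 read 215 and 378 against 534 and 684 (-1.10, blocked limma adjusted p = 1.92e-06), and EMILIN2 81 and 179 against 236 and 326 (-1.15, blocked limma adjusted p = 2.77e-06). In these 2 genes both VHL-null values lay below both VHL-restored values. THBS1 (-0.82, blocked limma adjusted p = 0.00264) and LAMA5 (-0.42, 0.011) were lower, and CD44 (0.73, 0.000789) and ITGB5 (0.39, 0.0336) higher. In the fit without the block, leaving out 1 array moved the CCN2 difference to between -3.52 and -0.80, that of THBS1 to between -1.4 and -0.24 and that of LAMA5 to between -0.69 and -0.16. The VHL-null replicates gave these ends: CCN2 and THBS1 were weakest without the first and strongest without the second, and LAMA5 was strongest without the first and weakest without the second.

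At 18 h of hypoxia no member passed without the block (0 of 28 in limma, against 0.0263% of all genes), while 4 members and 3.34% of all genes had an unadjusted p under 0.05. With the block 6 passed, against 7.59%. CCN2 read 35 and 354 in VHL-null cells and 490 and 969 in VHL-restored cells (-2.43, blocked limma adjusted p = 0.000473). EMILIN2 (-0.99, blocked limma adjusted p = 2.12e-05), TIMP2 (-0.94, 1.76e-05), THBS1 (-0.72, 0.00749) and LAMA5 (-0.47, 0.00544) were again lower and COL6A3 (0.40, 0.0231) was higher. Leaving out 1 array in the fit without the block moved CCN2 to between -3.56 and -1.30, THBS1 to between -1.30 and -0.15 and LAMA5 to between -0.68 and -0.26, with the same VHL-null replicates at the ends. The replicates behind these blocks also lay in different array sets.

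Hypoxia for 18 h gave no call in either genotype unless replicates were blocked. In VHL-restored RCC4 no member passed (0 of 28 in limma, against 0.0394% of all genes), with 2 members and 2.81% of all genes at an unadjusted p under 0.05. With the replicate block 4 members passed, against 6.58% of all genes, and all 4 rose, where 3.7% of all genes did. CD44 went from 402 and 746 to 540 and 1146 (log2 change 0.56, blocked limma adjusted p = 0.00756), a rise in both replicates. COL5A1, a collagen that nucleates fibrils, went from 336 and 466 to 426 and 629 (0.42, blocked limma adjusted p = 0.0197). ITGA3 went from 557 and 791 to 760 and 974 (0.41, 0.0365), and COL6A1 from 287 and 350 to 364 and 422 (0.34, 0.0477). Of the 28 members, 24 had a change above 0, as did 4982 of all 7614 genes, with a median of 0.16 against 0.05 for all genes.

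In VHL-null RCC4 no member passed either (0 of 28 in limma, against 0% of all genes), with 1 member and 0.67% of all genes at an unadjusted p under 0.05. With the block 0 members passed in limma, against 0.486% of all genes, and 6 members and 8.42% of all genes had an unadjusted p under 0.05. The largest change was that of ITGA5, from 84 and 134 to 117 and 195 (0.49, SE 0.186, limma adjusted p = 1.00). The test of whether the hypoxia change differed between genotypes called no member (0 of 28 in limma, against 0% of all genes), with 0 members and 0.591% of all genes at an unadjusted p under 0.05. With the block limma also called 0, against 0.565% of all genes, and 2 members and 5.91% of all genes had an unadjusted p under 0.05. The 6 h arrays against 0 h gave no call (0 of 28 in limma, against 0% of all genes). CCN1 alone among the members had an unadjusted p under 0.05, as did 4.01% of all genes.

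CCN1, an immediate early matricellular gene induced by growth factors and stretch, was lower after 4 h of reoxygenation than at 18 h of hypoxia. In array set 2, CCN1 read 1686 in VHL-null cells at 18 h of hypoxia, 1515 after 1 h of reoxygenation and 631 after 4 h. In VHL-restored cells it read 1576, 1190 and 396. Both genotypes were lowest at 4 h, below every other set 2 array. Each reoxygenation time had 1 array per genotype, and no RCC4 array was kept in hypoxia for the same total time. The VHL-restored array at 4 h of reoxygenation had 40.4% null entries, the most of the 30 arrays. Its gene median of 7.55 on the log2 scale was the lowest of set 2. The part of return to oxygen in the CCN1 change was not tested. Against 18 h of hypoxia, with terms for genotype and array set, CCN1 fell by 1.45 on the log2 scale (SE 0.129, limma adjusted p = 1.2e-05). It was the 1 of 28 members that passed, against 2.63% of all genes. Without the array set in the fit the change was -1.06 and the limma adjusted p 0.0864. CCN1 read 486 to 793 on the RCC4 arrays of set 1. With the replicate number as a block in place of the set, 10 members and 59.1% of all genes passed, but both 4 h arrays carry number 1 and lie in set 2, so that block does not match the sets. CCN2 read 137 in VHL-null and 289 in VHL-restored cells at 4 h of reoxygenation, against 354 and 969 at 18 h in the same set, and did not pass (-1.32, SE 0.438, limma adjusted p = 0.131). Leaving out 1 RCC4 array at a time moved the CCN1 change to between -1.69 and -1.22.

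**Figure D3:**
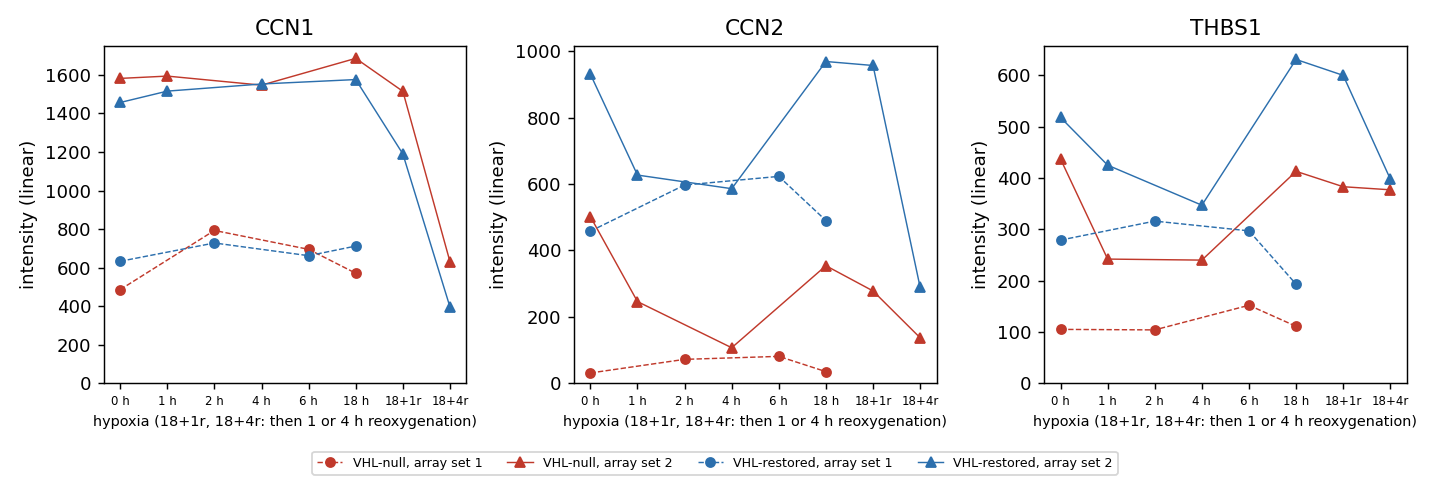
Linear intensity of CCN1, CCN2 and THBS1 on each RCC4 array over hypoxia and reoxygenation, VHL-null in red and VHL-restored in blue, with circles and dashed lines for array set 1 and triangles and solid lines for set 2. CCN1 lies at 1457 to 1686 on the set 2 arrays up to 18 h and at 631 and 396 after 4 h of reoxygenation.

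The lines were compared at 0 h, over 4 RCC4, 2 H1299 and 2 HCT116 arrays that pool the genotypes. Both comparisons of RCC4 share the RCC4 arrays and those arrays span both sets, while H1299 and HCT116 lie in set 1. TGFBI, the matricellular gene CCN1, the actin gene ACTA2, the integrin subunit ITGB5 and COL4A2 were higher in RCC4 than in either other line. THBS1, CD44 and COL5A1 were higher and SPARC lower too, but these calls over HCT116 were lost in 4, 7, 5 and 6 of the 8 fits that left out 1 array. With array set 1 alone the limma adjusted p over HCT116 was 0.183 for THBS1, 0.166 for CD44, 0.0604 for COL5A1 and 0.123 for SPARC. The hemidesmosome pair ITGA6 and ITGB4 was lower than in either line, though without centring ITGB4 against H1299 (-0.23, limma adjusted p = 0.446) and ITGA6 against HCT116 were not called. Against HCT116, 13 of 28 members passed (9 higher, 4 lower in RCC4) at a limma adjusted p under 0.05, where 40.5% of all genes did. Against H1299, 15 passed (12 higher, 3 lower), where 35.3% of all genes did. Centring matters here: the median of all genes was -0.21 and -0.20 in the 2 comparisons, 0.27 and 0.26 without centring and -0.06 and -0.06 after quantile normalization. Without centring the members split 8 higher to 1 lower and 10 to 1, and with quantile normalization 9 to 3 and 11 to 3.

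**Figure D4:**
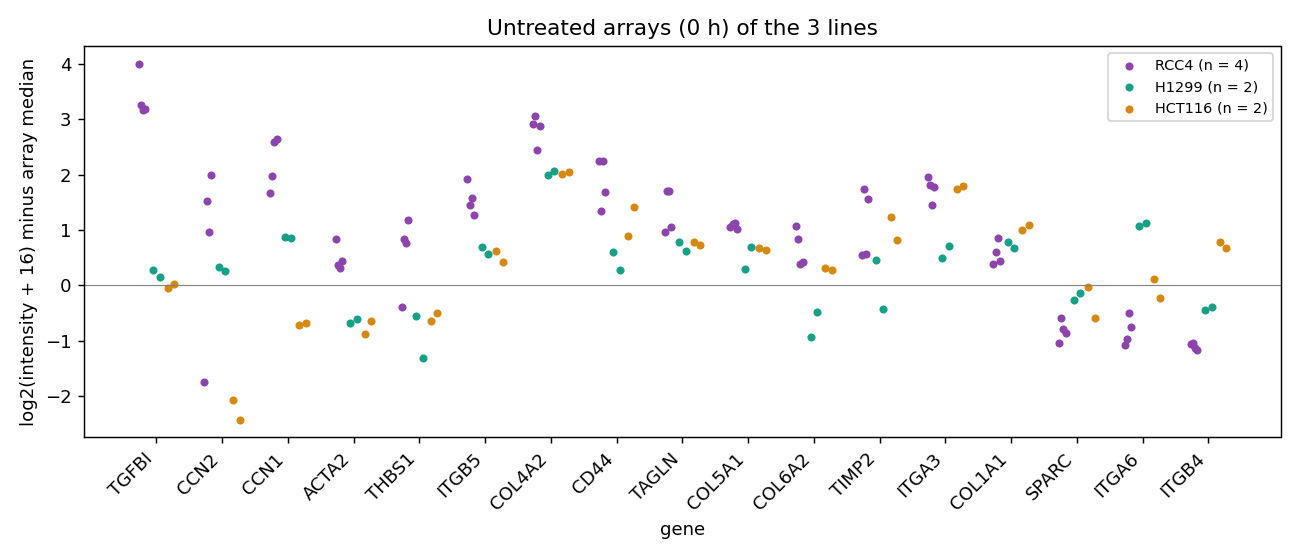
Log2(intensity + 16) minus the array median on each 0 h array for the 17 members that passed between any lines, with RCC4 in purple (n = 4), H1299 in green (n = 2) and HCT116 in orange (n = 2). TGFBI and CCN1 stand far above the other lines in RCC4, and ITGB4 and ITGA6 stand below them.

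TGFBI read 2520, 2365, 1562 and 2125 on the RCC4 arrays at 0 h, 162 and 147 in H1299, and 122 and 132 in HCT116. The RCC4 values lay far above both other lines, by a log2 difference of 3.41 over HCT116 (10.7-fold, SE 0.224, limma adjusted p = 4.29e-06) and 3.18 over H1299 (9.09-fold). CCN1 read 486, 1582, 633 and 1457 in RCC4, 251 and 247 in H1299, and 71 and 75 in HCT116. The lines did not overlap, with RCC4 2.91 above HCT116 and 1.36 above H1299 on the log2 scale. CCN2 in RCC4 (31, 502, 458 and 931) stood above HCT116 (18 and 11), by 2.94 (SE 0.794, limma adjusted p = 0.0144, and 0.128 with array set 1 alone), while its range enclosed the H1299 values of 169 and 159.

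COL4A2 read 1170, 1438, 1351 and 1729 in RCC4, 566 and 592 in H1299, and 560 and 582 in HCT116 (0.80 above each line, limma adjusted p = 0.00439 and 0.00517). Its neighbour COL4A1 read 688 to 895 in RCC4 at 0 h, 571 and 601 in H1299, and 596 and 637 in HCT116, and passed in neither comparison. LAMB1, below the filter, read 186 to 462 in RCC4, was null and 9 in H1299, and was null and 2 in HCT116, so that it was near the floor outside RCC4. COL6A2 exceeded H1299 by 1.38 (limma adjusted p = 0.000817), but a second COL6A2 probe set of about the same brightness differed by -0.80, so the direction for this gene depends on the probe set. CD44, at 0.73 over HCT116 and 1.44 over H1299, likewise had 2 dimmer probe sets at -0.17 and -0.30, and at -0.13 and -0.22. THBS1, at 1.18 and 1.53 (limma adjusted p = 0.073 and 0.055 without centring), had dimmer probe sets at 3.94 and 0.96, and at 3.96 and 0.98.

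Among the integrins, ITGB4 read 60, 106, 64 and 89 in RCC4, 92 and 96 in H1299, and 229 and 216 in HCT116. HCT116 lay above all other arrays, with RCC4 lower by -1.82 (SE 0.124, limma adjusted p = 5.14e-06). ITGA6, its partner subunit, read 59, 173, 68 and 125 in RCC4, 294 and 301 in H1299, and 139 and 108 in HCT116. Here H1299 lay above all others, with RCC4 lower by -1.92 (SE 0.181, limma adjusted p = 4.33e-05), and RCC4 was lower than HCT116 by -0.76, which did not pass without centring (adjusted p = 0.575). ITGB5, at 434 to 779 in RCC4 against 200 and 220 in H1299 and 178 and 205 in HCT116, was higher by 0.93 and 1.04. ITGA3 was 1.14 higher than in H1299 (557 to 791 against 191 and 224) and did not pass against HCT116 (465 and 488). ITGA2, null in RCC4 and HCT116, was listed at 8 and 21 in H1299 at 0 h.

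ACTA2 (1.25 and 1.13) and COL5A1 (0.43 and 0.59) were above HCT116 and H1299 in RCC4, in that order, TIMP2 (1.09) and TAGLN (0.65) above H1299, and COL1A1 (-0.47) below HCT116. Leaving out 1 array ended the call for TIMP2 in 5 of 8 fits, for TAGLN in 6 and for COL1A1 in 6. Without centring the limma adjusted p was 0.0577 for TIMP2 and 0.0699 for TAGLN, and COL1A1 turned to 0.0050 (0.991). With array set 1 alone it was 0.105 for TIMP2 and 0.0818 for TAGLN. SPARC was lower than in both (-0.52 and -0.62), which did not pass without centring (limma adjusted p = 0.927 and 0.699). Leaving out the p53-null HCT116 array leaves 1 array for that line. The difference from HCT116 then shrank to 0.47 for CD44, -0.24 for SPARC and -0.59 for ITGA6, and grew to -0.52 for COL1A1 and 3.11 for CCN2. With RCC4 arrays of set 1 alone, 9 and 11 members passed.

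HCT116 and H1299, both in set 1, differed in 4 of 28 members, where 3.95% of all genes passed. ITGA3 (1.17, SE 0.185, limma adjusted p = 0.00646) and ITGB4 (1.14, SE 0.143, limma adjusted p = 0.00131) were higher in HCT116. CCN1 (-1.55, SE 0.289, limma adjusted p = 0.0146) and ITGA6 (-1.15, SE 0.209, limma adjusted p = 0.0128) were lower. The count was 1 or 2 when any 1 of the 4 arrays of these lines was left out and 0 without centring.

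Hypoxia in the other lines gave no call. After 24 h, H1299 and HCT116 together had 0 of 28 members called by limma, against 0% of all genes. An unadjusted p under 0.05 was found for 4 members and 5.61% of all genes. ACTA2, the smooth muscle actin, read 76 and 135 at 0 and 24 h in p53-null H1299 and 80 and 143 in p53 wild-type H1299. In HCT116 it read 62, 53 and 66 at 0, 12 and 24 h without p53 and 77, 155 and 138 with p53. Its change over the 4 backgrounds was 0.57 (SE 0.136, limma adjusted p = 0.653), above 0 in all 4. TIMP2 moved in opposite ways in H1299, from 185 to 68 without p53 and from 93 to 182 with it, and in HCT116 it was lowest at 12 h in both genotypes (164 and 142) and highest at 24 h (385 and 354). No replicate stands behind these single arrays.

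Late hypoxia (18 h in RCC4, 24 h elsewhere) over the 6 line and genotype backgrounds called no member (0 of 28 in limma, against 0% of all genes). Unadjusted, 6 members and 12.1% of all genes had a p under 0.05. ITGA5 (0.41, SE 0.110, limma adjusted p = 0.395) and COL5A1 (0.16, SE 0.0573, limma adjusted p = 0.401) were the 2 tested members above 0 in all 8 pairs of arrays. No tested member was below 0 in all 8. The share of all genes above 0 in all 8 pairs was not counted, so the 2 members cannot be set against it. In the fit 23 of 28 members had a change above 0, as did 4713 of all 7614 genes. ITGA5 read 73, 160 and 154 at 0, 12 and 24 h in p53 wild-type HCT116 and 130, 155 and 169 in p53-null HCT116.

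**Figure D5:**
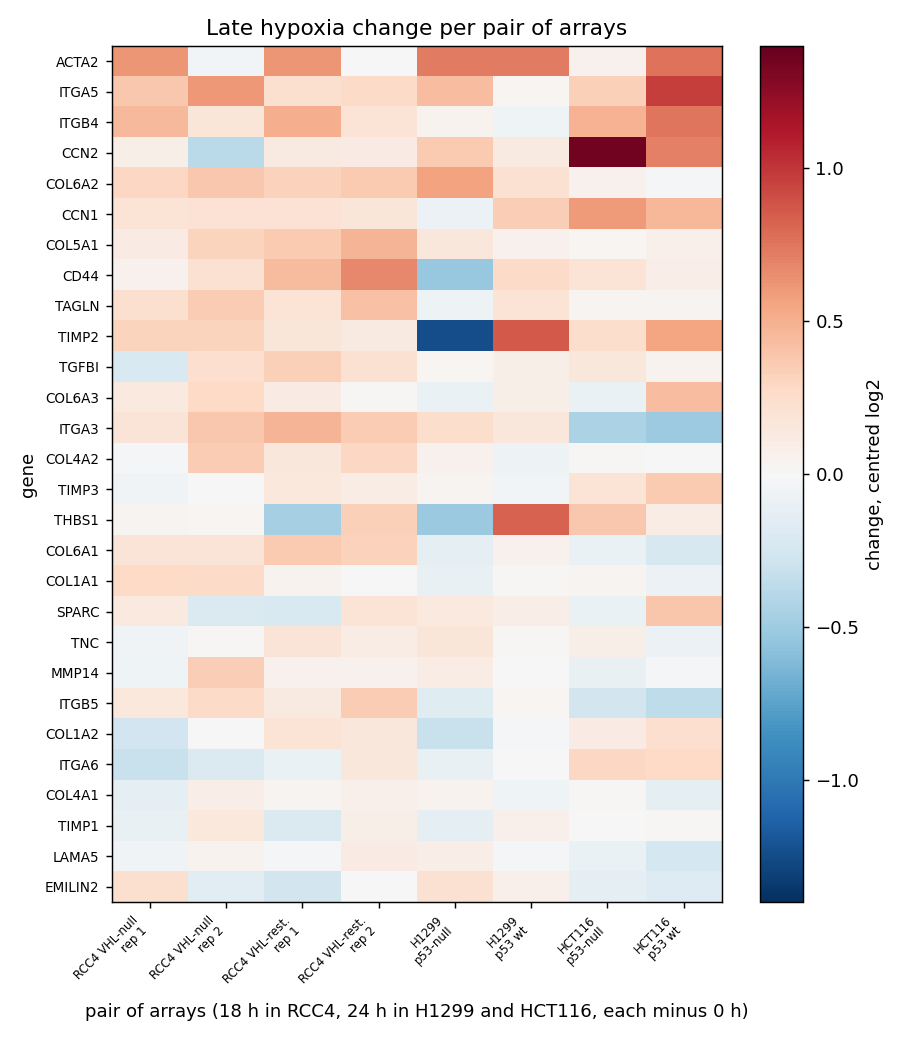
Change in centred log2 intensity of the 28 tested members in each of 8 pairs of late hypoxia and 0 h arrays (red above 0, blue below 0), with genes ordered by their mean change. ITGA5 and COL5A1 are above 0 in all 8 columns, and ITGA3 is above 0 in 6, the 2 HCT116 columns being the exception.

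The p53 genotype gave no call over 5 pairs of H1299 and HCT116 arrays (0 of 28 in limma, against 0% of all genes), while 2 members and 6.91% of all genes had an unadjusted p under 0.05. The 2 were CCN2, with a log2 difference of -0.45 in p53 wild-type cells (limma adjusted p = 0.721), and ACTA2, with 0.52 (limma adjusted p = 0.721). CCN2 read 18, 12 and 71 in p53-null HCT116 at 0, 12 and 24 h and 11, 4 and 27 in p53 wild-type HCT116, lower with p53 at each time.

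A wider list of 123 other matrix, protease, adhesion and contractile genes held 53 tested genes. For VHL over all RCC4 states 8 of them passed in limma, 1 higher and 7 lower without VHL, which is 15.1% of the list, the same share as the 15.1% of all genes tested. The blocked fit called 7 higher and 11 lower, 34% of the list beside 33.1% of all genes. CNN1, the smooth muscle protein calponin, had a log2 difference of -0.92 (SE 0.0831, limma adjusted p = 1.52e-06). ADAM12, a membrane metalloprotease, was the 1 higher gene, at 0.55 (SE 0.0994, limma adjusted p = 0.000994). ITGB6 (-0.47), the myosin light chain MYL9 (-0.45), the metalloproteinase inducer BSG (-0.45) and the basement membrane collagen COL18A1 (-0.40) were lower. The median over the 53 genes was -0.07, beside -0.05 over all genes tested.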

How the data were processed

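RNA from 30 cultures was measured on a custom Affymetrix array. The authors deposited linear intensities in whole numbers, whose scaling method and null entries are not explained in the sources used here. Probe sets on the array numbered 35356, of which 17478 were annotated, 16905 with just 1 symbol, and each gene was read from its brightest probe set. Null was taken as 0, log2(intensity + 16) was centred on each array's median over 12690 genes (gene medians spanned 0.903 on the log2 scale), and the upper 60% by mean were tested with limma 3.58.1 in R 4.3.3 (two-sided, Benjamini-Hochberg over 7614 genes, threshold 0.05). Fits over the RCC4 states used genotype and state terms. Late hypoxia averaged replicates first. Null entries were 18.4% to 40.4% of an array.

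Replicate differences at 0 and 18 h correlated at 0.794 to 0.916 over 6 pairs of groups across genes, which are not independent, so replicate numbers count as pairing there. The number equals the array set, so which of them pairs the arrays cannot be told apart.

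Members and lists were chosen with earlier results of these data known. Named were members past the threshold with or without the block, the brightest or dimmest of a role group, and untested members. Genes singled out otherwise were chosen after their values were seen. On simulated data the fit of 20 RCC4 arrays recovered 100% of genes changed by 0.5 on the log2 scale. The fit at 0 h recovered 0% of those changed by 0.5 and 88% of those changed by 2. The simulated noise was independent between arrays, without array sets or replicate pairs, and at 0 h it exceeded the residual spread. These shares therefore do not give the power in the real arrays and cannot be compared with each other. Alternatives were pseudocount 64, no centring, quantile normalization, no filter, the replicate block, the array set, all arrays per line and leaving out each array. Promoters came from RefSeq (GRCh38.p14).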

Additional observations from a re-analysis of the deposited data

Results flagged for a closer look

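ITGA3, ITGB5 and COL6A1 were higher after late hypoxia in every RCC4 pair of arrays and lower in both HCT116 genotypes. Only members called in some comparison of these data were searched for such a pattern. ITGA3 and COL6A1 were among those called, with the block, for a rise in VHL-restored RCC4. The share of all genes with this pattern was not counted. The mean log2 change of ITGA3 was 0.3466 in RCC4 over 4 pairs and -0.4722 in HCT116 over 2 pairs. ITGA3 in HCT116 went from 465 to 341 without p53 and from 488 to 332 with p53. For ITGB5 the mean change was 0.2240 in RCC4 and -0.3095 in HCT116. For COL6A1 it was 0.2600 in RCC4 and -0.1546 in HCT116. The difference between the lines was not tested, the hours differ (18 h and 24 h), and the RCC4 arrays span both array sets.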

How the results depend on the processing

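Counts of members called moved as follows. For VHL over all RCC4 states (10 called), no centring gave 5 and leaving out 1 array gave 9 to 11. With the replicate number as a block, the count went from 0 to 7 for VHL at 0 h, from 0 to 6 at 18 h and from 0 to 4 for hypoxia in VHL-restored RCC4, and it changed no other count of 0. For 4 h reoxygenation (1 member and 200 of 7614 genes called), pseudocount 64 gave 2 members. No centring gave 7 members, beside 2326 genes. No filter gave 3 members, beside 2166 of 12690 genes, with ITGA2 and COL3A1 among them. ITGA2 was null on all 20 RCC4 arrays and COL3A1 on 16 of them, so these calls rest on null entries and array medians. The fit without the array set gave 0 members and 61 genes, and the replicate block 10 members and 4500 genes. RCC4 against HCT116 (13 members and 3084 of 7614 genes called) gave 20 members and 5972 genes with all arrays of each line. That fit pools untreated, hypoxic and reoxygenated arrays. Leaving out 1 array moved CD44 over HCT116 to between 0.47 and 0.99 and SPARC to between -0.80 and -0.24. For RCC4 against H1299 (15 called), leaving out 1 array moved TIMP2 to between 0.65 and 1.53 and TAGLN to between 0.54 and 0.78. HCT116 against H1299 (4 called) gave 0 without centring, 2 with no filter, 10 with all arrays of each line and 1 to 6 when leaving out 1 array. COL1A1 turned its sign for VHL within array set 1 (-0.048, limma adjusted p = 0.780) and for RCC4 against HCT116 without centring (0.0050, limma adjusted p = 0.991). Of 965 results for single members under an alternative, 835 kept direction and side of the threshold, 111 lost the call, 17 gained it and 2 turned. The 835 include members called only with the replicate block, whose other fits stayed uncalled, and leave-one-out fits that share most arrays. They are therefore no measure of how stable the calls are. Counts over all genes moved too: VHL over all states called 1151 genes, 226 without centring, 2518 with the replicate block and 3478 within array set 2. HCT116 against H1299 called 301, and 1071 with all arrays. The causes were not tested. Null and dim entries limit MMP1, MMP7, COL3A1, ITGA2 and ITGAV, whose differences depend on the pseudocount.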
